A study of Mus musculus with 10 samples.

Results

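The 10 genes described here encode proteins that coat lipid droplets or set how droplets form and are broken down. They are the perilipins Plin2, Plin3, Plin4 and Plin5, the triglyceride lipase Pnpla2 with its activator Abhd5 and its inhibitors G0s2 and Hilpda, and the endoplasmic reticulum (ER) proteins Bscl2 and Fitm2. They are a named list of 10 among the 55536 mouse genes in the count tables, and all 10 passed the filter on low counts in every comparison. The 10 libraries were made from mRNA of 5 mice that were 1 year old, 1 library each for the cerebellum and the cerebral cortex. Controls 1 and 2 were Het and control 3 was WT, while KO 1 and KO 2 were Snx14-KO. The study describes a full-body KO that rests on a frameshift deletion in Snx14, and the labels place Het mice beside the WT mouse as controls, so those controls are taken to carry the allele too. The line was kept on a C57BL/6J background. Each library came from bulk tissue, in which fewer cells of a type and less RNA per cell cannot be told apart.

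Lipid droplets store triglycerides and sterol esters in a neutral core under a single phospholipid layer. Perilipins sit on that layer and limit access to the core, seipin (Bscl2) and FIT2 (Fitm2) act in the ER membrane where droplets bud, and ATGL (Pnpla2) opens the breakdown of triglycerides. CGI-58 (Abhd5) activates ATGL, while G0s2 and Hilpda inhibit it. In the brain, droplets are known mainly from glia and ependymal cells. Snx14 itself encodes an ER membrane protein of the sorting nexin family that is known to meet growing droplets.

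Library totals ranged from 16088310 to 22975355 gene counts. Levels are CPM values scaled with TMM factors over all 10 libraries, so that values can be set side by side across tissues. Snx14, the targeted gene, lay between 39.9 and 73.3 CPM in control cerebella and at 15.5 and 17.4 CPM in KO cerebella, and between 34.4 and 50.9 CPM in control cortices and at 14.8 and 16.1 CPM in KO cortices. The summed level of 12 granule cell genes was 5827 to 6856 CPM in the cerebellum libraries and 537 to 575 CPM in the cortex libraries. Control 2 and KO 2 were male by Xist and Y-linked genes, and the other mice female. Control 2 was the highest or the lowest of the 3 controls for 8 of the 10 genes in cerebellum and for 10 of 10 in cortex, where this held for 75.3% and 79.3% of all 20614 genes kept over the 10 libraries.

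Plin4 was the member with the largest KO effect, and its level differed far more between mice than between the tissues of a mouse. Its product is the longest perilipin and is best known from adipocytes and skeletal muscle. In GRCm38 the gene (ENSMUSG00000002831.13) spans 56100591 to 56109803 of chromosome 17 on the minus strand, next to Plin5 (ENSMUSG00000011305.11, 56111601 to 56117596), with Plin3 (ENSMUSG00000024197.10, 56277476 to 56292873) further along the same strand. Pnpla2 (ENSMUSG00000025509.15) lies on the plus strand of chromosome 7 from 141455198 to 141460743, and Plin2 (ENSMUSG00000028494.12) spans 86648386 to 86670060 of chromosome 4, minus strand. The RefSeq promoters of these 3 genes in GRCm38.p6 follow, because Plin4 and Pnpla2 were the members with both KO libraries above every control in both tissues, and Plin2 the member with the largest difference between the tissues. Each runs 5′ to 3′ on the gene's strand within the 250 bases before the RefSeq start, cut where a GENCODE exon begins, and capitals mark the motifs found.
Plin4, chr17:56109804-56110032, minus strand: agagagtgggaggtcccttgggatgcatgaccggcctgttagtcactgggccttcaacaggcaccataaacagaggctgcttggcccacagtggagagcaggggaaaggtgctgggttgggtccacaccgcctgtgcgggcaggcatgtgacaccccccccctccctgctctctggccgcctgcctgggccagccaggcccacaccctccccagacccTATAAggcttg
Pnpla2, chr7:141454938-141455187, plus strand: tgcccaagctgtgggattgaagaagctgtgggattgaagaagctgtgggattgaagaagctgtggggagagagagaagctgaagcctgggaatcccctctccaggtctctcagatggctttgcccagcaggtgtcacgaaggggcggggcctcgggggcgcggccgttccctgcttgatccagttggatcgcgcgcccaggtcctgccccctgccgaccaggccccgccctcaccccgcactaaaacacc
Plin2, chr4:86670061-86670309, minus strand: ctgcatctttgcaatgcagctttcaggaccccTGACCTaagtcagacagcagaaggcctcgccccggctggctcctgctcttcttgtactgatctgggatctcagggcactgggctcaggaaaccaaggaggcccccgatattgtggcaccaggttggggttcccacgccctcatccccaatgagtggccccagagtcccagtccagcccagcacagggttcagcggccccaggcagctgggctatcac

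Both strands of the 250-base windows were searched for the hormone receptor half-site AGGTCA, its direct repeat AGGTCANAGGTCA as bound by PPAR, the glucocorticoid receptor motif AGAACANNNTGTNCT and its half-site AGAACA, the hypoxia motif core ACGTG and the TATA motif TATAA. The Plin4 window holds TATAA 32 bases before the RefSeq start. The Plin2 window holds AGGTCA on the opposite strand, which reads TGACCT in its printed line. No searched motif is present in the Pnpla2 window. Some members have several RefSeq starts, so the 10 members have 14 windows. TATAA was found in 4 of the 14 windows, AGGTCA in 4 and ACGTG in 1, each time in a different member for a given motif, and the other motifs in 0. Among all 32851 RefSeq promoters of the same length, TATAA is present in 22.7847%, AGGTCA in 14.0239%, AGAACA in 16.0847%, ACGTG in 16.5718%, the direct repeat in 0.0335% and the glucocorticoid receptor motif in 0.0365%. These matches are descriptions of letters in a window and do not show that a factor binds there.

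Levels between genes were compared per kilobase of exonic length. In control cerebella the mean level per kilobase was highest for Bscl2 at 11.5 ± 0.985 CPM per kb (SD, n = 3). G0s2 followed at 9.48 ± 1.73, Pnpla2 at 8.91 ± 0.834, Fitm2 at 8.90 ± 0.715 and Plin3 at 7.97 ± 0.692 CPM per kb (SD, n = 3). Each of these 5 overlapped its neighbour in the order. Plin2 at 4.41 ± 1.24, Hilpda at 2.91 ± 0.378 and Abhd5 at 2.78 ± 0.279 CPM per kb formed a lower step, all below every Plin3 value, and Plin4 at 1.15 ± 0.790 and Plin5 at 0.192 ± 0.115 CPM per kb (SD, n = 3) were lowest, without overlap with the gene above them. In control cortices Bscl2 again stood first at 14.5 ± 0.992 CPM per kb (SD, n = 3), here without overlap with Fitm2 in the next place at 7.36 ± 0.634. Plin2 at 1.48 ± 0.404 and Plin4 at 1.48 ± 1.11 CPM per kb (SD, n = 3) could not be ordered in cortex, and Plin5 at 0.335 ± 0.127 overlapped Plin4. Plin3, the perilipin that most tissues express, was at 5.81 ± 1.29 CPM per kb (SD, n = 3) in cortex and was the most abundant perilipin of both tissues on this scale. Plin5, the perilipin of oxidative tissues such as heart, was the least abundant. Plin5 rested on only 3 to 16 read pairs per library. Plin1, the perilipin of adipocytes, was not a member, and no library held more than 1 read pair of it.

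**Figure D1:**
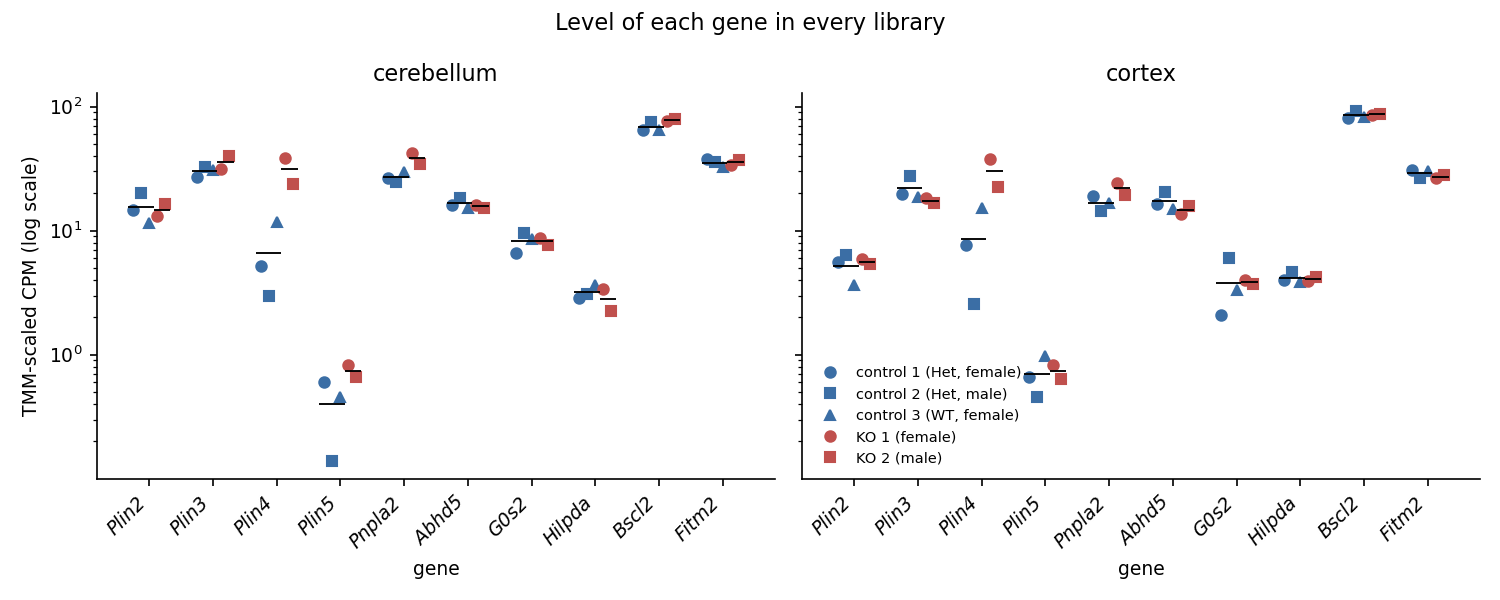
TMM-scaled CPM (log axis) of the 10 genes in the 5 cerebellum and the 5 cortex libraries. Each point is 1 library, blue for controls and red for KO, with the shape giving the mouse, and black lines are group means. The Plin4 points spread from 2.96 to 38.8 CPM in cerebellum, while those of Bscl2 lie between 64.4 and 78.8 CPM.

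In cerebellum 1 of the 10 members, Plin4, was called between KO and control mice, a call being an adjusted p under 0.05 with an absolute log2 fold change over 0.5. The background is 302 of 19447 tested genes called in either direction, 1.55%, and 0.514% called higher. Plin4 was at 5.23, 2.96 and 11.8 CPM in controls 1 to 3 and at 38.8 and 24.0 CPM in KO 1 and KO 2. The KO libraries stood above all controls, and the WT control was the highest of the controls. The log2 fold change was 2.24 (SE 0.446, 95% confidence interval 1.21 to 3.26, adjusted p 0.0455 by the quasi-likelihood test of edgeR with Benjamini-Hochberg adjustment over all genes), a fold of 4.71. This call depended on single libraries: the adjusted p was 0.211 without control 1, 0.197 without KO 1 and 0.0583 without KO 2. It was 0.0340 without control 2 and 0.0129 without control 3, and 0.0679 with DESeq2.

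In cortex 0 of the 10 members and 0 of 19202 tested genes were called by edgeR, a background of 0.0%, while 1139 genes had an unadjusted p under 0.05 and DESeq2 called 49. Snx14, the targeted gene, was itself not called there by edgeR, at a log2 fold change of -1.36 (adjusted p 0.754). With DESeq2 the adjusted p of Snx14 was 2.1e-06. Plin4 was at 7.73, 2.59 and 15.3 CPM in controls 1 to 3 and at 37.5 and 22.6 CPM in KO 1 and KO 2. Again the KO libraries stood above all controls and the WT control above both Het controls. The log2 fold change was 1.85 (SE 0.562, 95% confidence interval 0.55 to 3.16), with an unadjusted p of 0.0117 and an adjusted p of 0.760 by edgeR. Without control 2, the lowest library, the log2 fold change was 1.41 and the adjusted p 0.0216, in a fit that called 98 genes (0.517%). The KO effect in cerebellum minus that in cortex, tested in 1 fit of all 10 libraries, was 0.41 for Plin4 (SE 0.870, 95% confidence interval -1.51 to 2.33, adjusted p 0.966 by edgeR), so a difference between the tissues was not detected and neither was a similar effect shown.

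The spread of Plin4 among controls was itself wide. Its highest control exceeded its lowest by 3.97 times in cerebellum and by 5.92 times in cortex. Of the 13472 genes with a mean of at least 5 CPM, 0.616% had as large a spread among the controls in cerebellum and 0.289% in cortex. For comparison, the spread of Pnpla2 was 1.21 and 1.33 times, and that of Bscl2 1.16 and 1.13 times. Among the members with at least 5 CPM on average G0s2 in cortex came next, with a spread of 2.85 times that 1.07% of those genes matched. Plin5, far below that level, had a spread of 4.37 times in cerebellum, from 3 to 13 read pairs.

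Within each mouse the tissues gave similar Plin4 levels. The cerebellum to cortex ratio of Plin4 was 0.677 in control 1, 1.15 in control 2, 0.768 in control 3, 1.03 in KO 1 and 1.06 in KO 2, although the level differed by 13.1 times between mice in cerebellum and by 14.5 times in cortex. The 5 mice stood in the same order in both tissues, from control 2 through control 1, control 3 and KO 2 to KO 1. Plin4 was the only one of the 10 members with the same order of mice in both tissues, as 403 of 20614 genes (1.95%) had, each with its own order. This was looked for after the values were seen. The male was the lower mouse among the KO mice and the lowest among the controls. With 1 male in each class sex cannot be told apart from the single mouse, and with sex as a term the Plin4 log2 fold change was 2.49 in cerebellum (adjusted p 0.0111 by edgeR) and 2.22 in cortex (adjusted p 0.236).

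**Figure D2:**
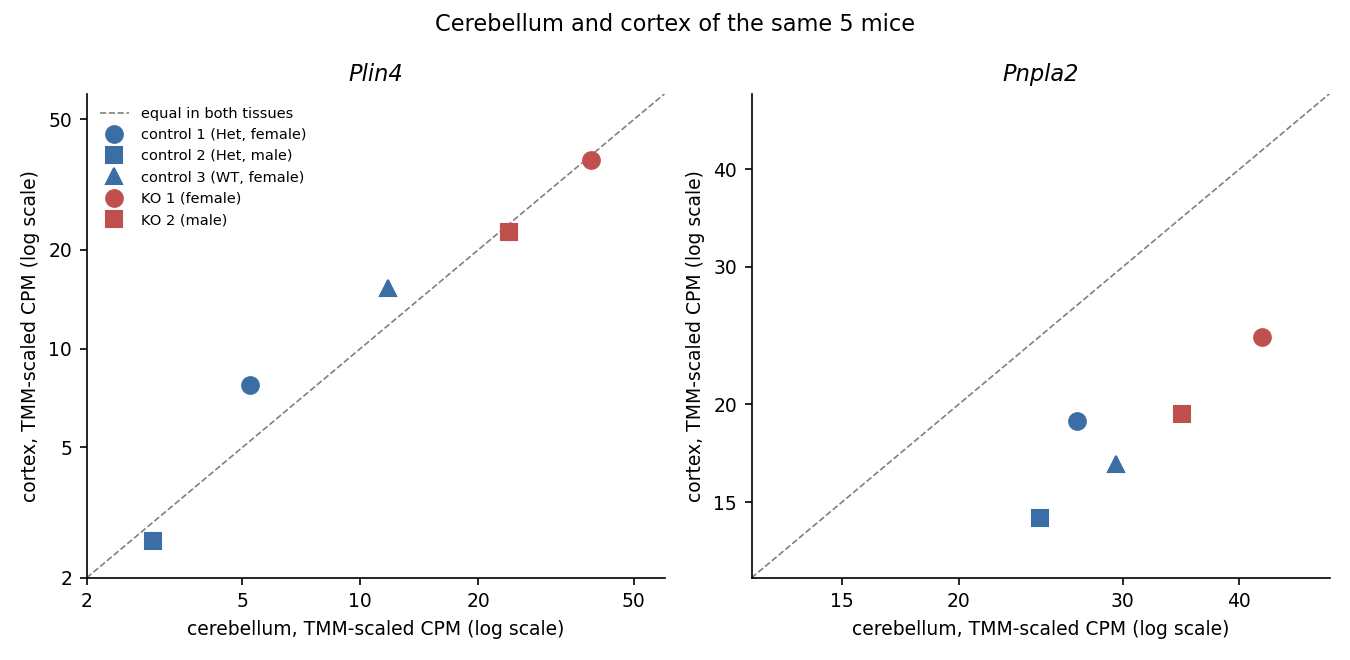
Plin4 and Pnpla2 in the cerebellum (horizontal) and the cortex (vertical) of each of the 5 mice, in TMM-scaled CPM on log axes. Plin4 points lie close to the dashed line of equal levels, with ratios of 0.677 to 1.15, and Pnpla2 points lie below it, with ratios of 1.40 to 1.79.

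Pnpla2 was the other member with both KO libraries above every control in both tissues, a pattern that 2.31% of the genes kept over all 10 libraries had. Its cerebellum level was 26.8, 24.5 and 29.5 CPM in controls 1 to 3 and 42.4 and 34.7 CPM in KO 1 and KO 2. The log2 fold change was 0.51 (SE 0.116, 95% confidence interval 0.24 to 0.77, adjusted p 0.0744 by edgeR), which missed the threshold. It passed with DESeq2 (adjusted p 0.0110), which called 2.35% of the genes it tested, and with sex as a term (adjusted p 0.0202), where 1.64% were called. In cortex Pnpla2 was at 19.1, 14.3 and 16.8 CPM in controls 1 to 3, against 24.4 and 19.4 CPM in KO 1 and KO 2. KO 2 lay just above control 1, and the log2 fold change of 0.41 (SE 0.169, 95% confidence interval 0.02 to 0.80, unadjusted p 0.0436, adjusted p 0.829 by edgeR) was not called. Both tissues come from the same 5 mice, so the pair of values per gene is not independent.

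The other perilipins did not pass in either tissue. Plin2, which coats droplets in most cells that hold them, was at 14.7, 20.2 and 11.6 CPM in the control cerebella and at 13.1 and 16.4 CPM in the KO cerebella, inside the range of the controls. Its log2 fold change was -0.078 in cerebellum (95% confidence interval -0.59 to 0.43) and 0.12 in cortex (95% confidence interval -0.47 to 0.71). Plin3 was at 27.3, 32.4 and 30.8 CPM in control and at 31.7 and 39.8 CPM in KO cerebella, with a log2 fold change of 0.24 (adjusted p 0.466 by edgeR). In cortex Plin3 was at 19.8, 27.6 and 18.6 CPM in control and at 18.2 and 16.7 CPM in KO mice, below all controls, as were 14.2% of all tested genes, with a log2 fold change of -0.32 (adjusted p 0.886). Its KO effect in cerebellum exceeded that in cortex by 0.58 (SE 0.241, unadjusted p 0.0349, adjusted p 0.536 by edgeR), the only one of the 10 members with an unadjusted p under 0.05 in that test, as 8.28% of all tested genes had. That test called 21 of 20614 genes, 0.102%, and 128 genes (0.621%) with the mouse as a block, and 0 members in either. Plin5 ranged from 0.139 to 0.607 CPM in control and from 0.663 to 0.824 CPM in KO cerebella, a log2 fold change of 0.87 with a 95% confidence interval of -0.40 to 2.14. No difference was detectable with these 5 libraries.

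Among the partners of ATGL, Abhd5 had a log2 fold change of -0.088 in cerebellum (95% confidence interval -0.37 to 0.19) and -0.23 in cortex (95% confidence interval -0.64 to 0.18). G0s2 was at 8.25 ± 1.51 CPM in control (SD, n = 3) and at 8.22 ± 0.727 CPM in KO cerebella (SD, n = 2), and Hilpda at 3.20 ± 0.417 and 2.82 ± 0.826 CPM. In cortex G0s2 was at 3.80 ± 1.99 CPM in control and 3.86 ± 0.177 CPM in KO mice, and Hilpda at 4.18 ± 0.422 and 4.08 ± 0.226 CPM. Neither class lay wholly above or below the other for these 3 genes in either tissue. The 95% confidence interval of the log2 difference was -0.90 to 0.95 for G0s2 in cortex and -0.77 to 0.36 for Hilpda in cerebellum. Of the ER proteins, Bscl2 was at 64.4, 74.6 and 64.7 CPM in control and at 75.9 and 78.8 CPM in KO cerebella, above all controls, with a log2 fold change of 0.18 (SE 0.0816, adjusted p 0.396 by edgeR). Fitm2 differed by 0.0033 in cerebellum (95% confidence interval -0.22 to 0.22) and by -0.086 in cortex (95% confidence interval -0.36 to 0.19) on the log2 scale. Over the 10 members, 4 had both KO libraries above all controls in cerebellum, against 15.5% of all tested genes, and 2 in cortex, against 10.5%. Plin5 is among these 4, with 13, 3 and 9 read pairs in control and 15 and 16 in KO cerebella. It met the minimum count of 10 mainly through the KO libraries, so its place in that count carries no weight. The median log2 fold change of the members was 0.09 in cerebellum and 0.028 in cortex, and that of all tested genes 0.00090 and 0.0012.

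**Figure D3:**
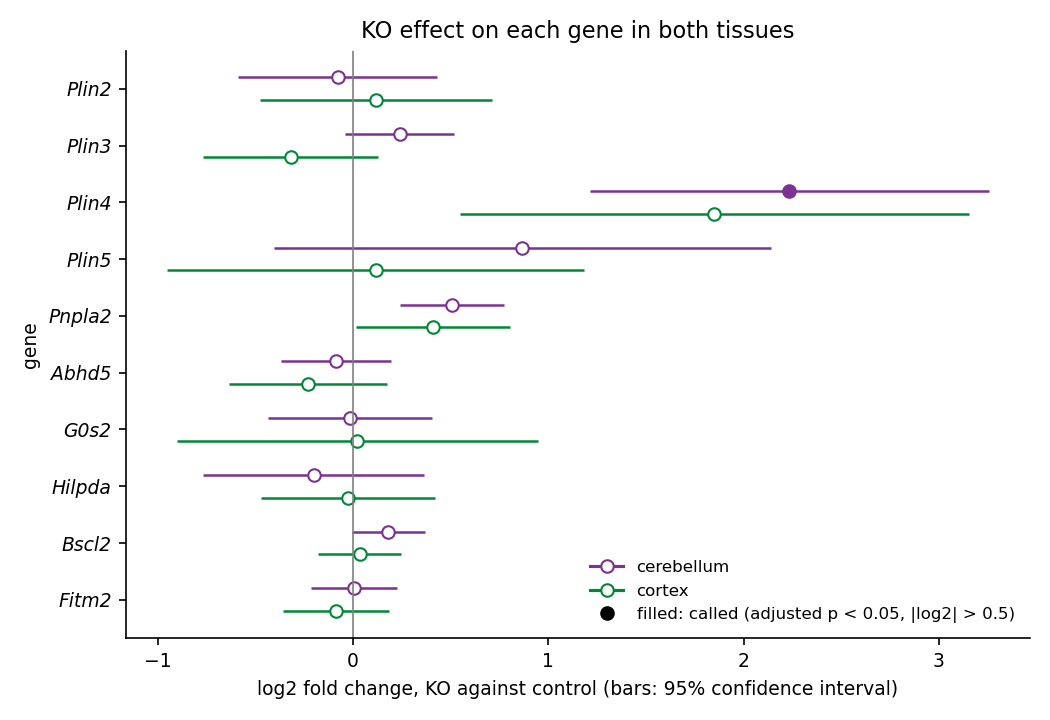
Log2 fold change of KO against control for the 10 genes in cerebellum (purple) and cortex (green), with 95% confidence intervals from edgeR as bars and filled points for called genes. Plin4 in cerebellum, at 2.24, is the only filled point. The Plin4 and Pnpla2 intervals lie above 0 in both tissues.

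The KO effect on Plin4 was set beside that on its neighbours and on other genes of the pathway. None of the 6 tested genes within 50 kb of Plin4, Plin5 among them, was called in either tissue, but in cortex no gene was called at all. Their log2 fold changes ran from -0.017 to 0.87 in cerebellum, the highest being Plin5, and from -0.12 to 1.11 in cortex. For the highest neighbour of each tissue the KO libraries stood above all controls, as for 15.5% and 10.5% of all tested genes. Plin5 passed the filter on low counts in cerebellum mainly through its KO libraries. The lists of other droplet genes named below were 14 coat and surface genes, 17 genes of droplet biogenesis and triglyceride synthesis, and 12 genes of neutral lipid hydrolysis. Of these 43 genes 34 were tested in cerebellum and 35 in cortex, and 0 were called in either tissue by edgeR, with 7 (20.6%) and 4 (11.4%) at an unadjusted p under 0.05, where 13.4% and 5.93% of all tested genes were. DESeq2 called 1 of them in cerebellum, the fusion protein gene Cideb (adjusted p 0.0247, named after its values were seen), and 0 in cortex. Their median log2 fold change was 0.07 in cerebellum and 0.0064 in cortex.

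Perilipins and ATGL are known targets of PPAR receptors, Hilpda of hypoxia-inducible factor (HIF), and Plin4 responds to glucocorticoids in some tissues, so lists of such genes were read in the same way. Over all tested genes 0.514% were called higher in cerebellum. Of 15 tested PPAR target genes 1 was called higher in cerebellum, Txnip at 0.90 (adjusted p 0.0211 by edgeR), and the list's median was 0.19. Of 15 HIF target genes 0 were called, with a median of 0.016. Of 17 glucocorticoid-responsive genes 3 were called higher in cerebellum and 0 lower, with a median of 0.62 and 17 of 17 estimates above 0, beside 50.2% of all tested genes. The PPAR list shares Pdk4 with this list and the HIF list Ddit4. The called genes were the kinase gene Sgk1 at 0.72 (adjusted p 0.00196), and the metallothionein genes Mt1 at 0.96 (adjusted p 0.0114) and Mt2 at 0.97 (adjusted p 0.0135), all by edgeR. In cortex 0 genes of these lists were called, and the medians were 0.08 for the PPAR, -0.059 for the HIF and 0.42 for the glucocorticoid-responsive list, in which 17 of 17 estimates were again above 0. The cortices come from the same mice as the cerebella, and genes of a list can move together, so these counts are not independent. The lists were also chosen with earlier results of these data known. A part of any of these responses in the Plin4 values was not tested.

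Genes that followed the Plin4 pattern most closely were sought by Pearson's r of log2 CPM over the 10 libraries of the 5 mice after each tissue mean was subtracted, as a description. The 5 highest were Slc19a2 (0.976), which encodes a thiamine transporter, Ppm1m (0.976), a protein phosphatase, Cabp1 (0.971), a neuronal calcium-binding protein, AC174800.1 (0.970) and Cpne1 (0.969), a copine. AC174800.1 and Cpne1 share 100% and 84.1% of their exonic bases with another gene, and their reads cannot be told apart from those of that gene. None of the 5 was called, and their log2 fold changes in cerebellum were 0.16 to 0.31. These changes were far smaller than that of Plin4. Of the other members Pnpla2 was most like Plin4, with r of 0.922 and rank 46 among all genes, followed by Plin5 at 0.762, while Abhd5 at -0.810 ran the opposite way.

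Cell type markers also moved with the KO class, and their part in the values of Plin4 and Pnpla2 was not tested. The summed level of 13 reactive astrocyte genes was 428 to 503 CPM in control and 837 to 882 CPM in KO cerebella, and 220.0 to 278 CPM in control and 306 to 312 CPM in KO cortices. The 9 pericyte and smooth muscle genes, at 135 to 144 CPM in control and 164 to 189 CPM in KO cerebella and at 133 to 174 CPM in control and 176 to 186 CPM in KO cortices, were likewise above every control in both tissues. The rise of the reactive astrocyte sum in cortex came mainly from Gfap, at a mean of 135 CPM in control and 187 CPM in KO mice. Of the 11 genes of that list tested in cortex 3 had estimates below 0, C4b among them, and 0 were called. In cerebellum 13 of 13 were above 0 and 4 were called higher. The 16 disease-associated microglia genes summed to 2781 to 2911 CPM in control and 3857 to 4112 CPM in KO cerebella, while they overlapped in cortex at 2549 to 3007 CPM and 2780 to 2969 CPM. Most of the cerebellum sums came from Apoe, at a mean of 1558 CPM in control and 2451 CPM in KO mice. In cerebellum 16 of the 16 genes had estimates above 0, and 3 were called higher. The KO sums of the homeostatic microglia, endothelial, adipocyte and striatum genes also stood above the controls in cerebellum, and that of the astrocyte and Bergmann glia genes in cortex. The striatum list names genes of another region, and 0 of its 12 tested genes were called in cerebellum. The 16 Purkinje cell genes summed to 11237 to 12893 CPM in control and 5850 to 6055 CPM in KO cerebella, and to 1881 to 2294 CPM in control and 1587 to 1592 CPM in KO cortices. Purkinje cells belong to the cerebellum, so in cortex these genes do not measure them. There Pcp4 (mean 476 against 264 CPM) and Kcnab1 (164 against 83.0 CPM) fell most from control to KO. Of the 15 genes tested in cortex 3 had estimates above 0, and 0 were called. In cortex the 15 striatum genes summed to 2235 to 5242 CPM in controls and 830.3 to 1448 CPM in KO mice. The 10 fibroblast and meninges genes overlapped between the classes in cerebellum, at 131 to 315 CPM in control and 263 to 391 CPM in KO mice. So did the 11 choroid plexus genes, at 1593 to 5057 CPM in control and 225 to 4370 CPM in KO cerebella. Of the adipocyte markers, Adipoq, Plin1, Cidec and Pck1 stayed at or below 0.0926 CPM in every library. The highest levels of the others were 0.139 CPM for Cfd, 0.166 for Lep, 0.360 for Fabp4, 1.01 for Retn and 1.41 for Car3. The list's sum of 13.1 to 17.0 CPM came mainly from Lipe, whose highest level was 16.03 CPM.

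**Figure D4:**
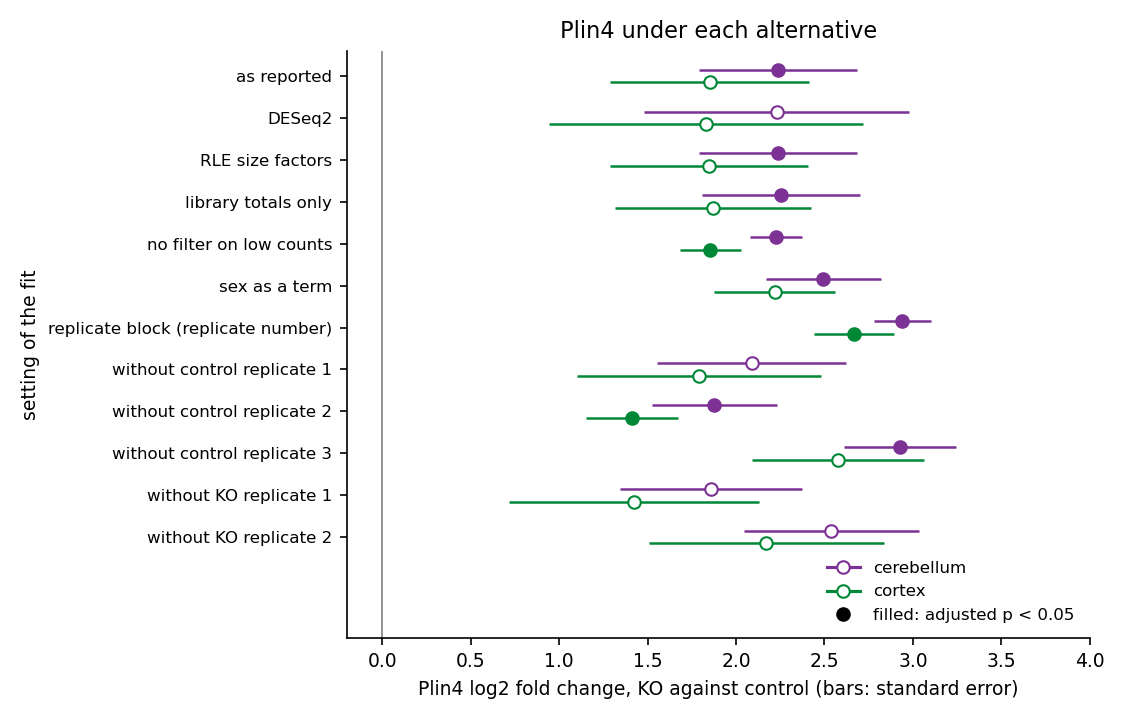
Plin4 log2 fold change of KO against control under each setting of the fit, in cerebellum (purple) and cortex (green), with standard errors as bars and filled points where the adjusted p is under 0.05. The estimates stay between 1.86 and 2.94 in cerebellum and between 1.41 and 2.67 in cortex, while the filled points change with the setting.

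The transcript levels of these genes were also compared between cerebellum and cortex in the 3 control mice. Of the 10 members 3 were called, all higher in cerebellum, where 40.5% of all tested genes were called in either direction and 19.1% higher. All cerebella stood above all cortices for 4 members, as for 31.5% of all tested genes, and below them for 2 members, as for 30.3%. Plin2 differed most, at 14.7, 20.2 and 11.6 CPM in cerebellum and 5.58, 6.39 and 3.62 CPM in cortex of controls 1 to 3. Every cerebellum stood above every cortex, and the log2 fold change was 1.57 (SE 0.257, 95% confidence interval 0.98 to 2.15, adjusted p 0.000933 by edgeR), a fold of 2.96. The KO mice also had more Plin2 in cerebellum, so the ratio was 2.23 to 3.20 in 5 of 5 mice. In the control cerebella the 11 choroid plexus genes summed to between 1593 and 5057 CPM, against 257 to 298 CPM in the control cortices. The KO mice had sums of 225 and 4370 CPM in cerebellum and of 285 and 299 CPM in cortex. The part of these genes in the Plin2 difference was not tested.

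G0s2, the inhibitor of ATGL, was at 6.63, 9.63 and 8.50 CPM in cerebellum and 2.10, 5.98 and 3.32 CPM in cortex of the controls. The groups did not overlap, and the log2 fold change was 1.10 (SE 0.334, adjusted p 0.0218 by edgeR). It did not pass without control 1 (adjusted p 0.0585) or without control 3 (adjusted p 0.159). With the mouse as a block the adjusted p of G0s2 by edgeR was 0.00080. Pnpla2 itself was higher in cerebellum by 0.69 (SE 0.130, 95% confidence interval 0.39 to 0.98, adjusted p 0.00208 by edgeR), with a ratio of 1.40 to 1.79 in 5 of 5 mice. The other inhibitor of ATGL, Hilpda, was at 3.20 ± 0.417 CPM in cerebellum and 4.18 ± 0.422 CPM in cortex (SD, n = 3), with all cerebella below all cortices and a log2 fold change of -0.39 (adjusted p 0.108). The activator Abhd5 differed by -0.079 (95% confidence interval -0.40 to 0.24), and by 0.031 when scaled by library totals only.

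Plin3, Bscl2 and Fitm2 had adjusted p-values under 0.05, as 53.3% of all tested genes had, but log2 fold changes within 0.5. Plin3 was higher in cerebellum by 0.45 (SE 0.154, adjusted p 0.0360 by edgeR), with overlap between the tissues. It did not pass without control 1 (adjusted p 0.144) or control 3 (0.237), while without control 2 it was called at 0.57 (adjusted p 0.000238). Bscl2 was at 67.9 ± 5.81 CPM in cerebellum and 85.4 ± 5.85 CPM in cortex (SD, n = 3), a log2 fold change of -0.34 (SE 0.0884, adjusted p 0.0115), with the cortex level higher in 5 of 5 mice. The adjusted p of Bscl2 was 0.0940 without control 1, 0.0901 without control 3 and 0.070 with library totals only. Fitm2 was at 35.3 ± 2.84 and 29.2 ± 2.52 CPM, a log2 fold change of 0.27 (SE 0.101, adjusted p 0.0495) that DESeq2 gave an adjusted p of 0.105 and that lost the threshold whichever control was left out (adjusted p 0.0878 to 0.204). Neither ER protein was called. With the mouse as a block the adjusted p by edgeR was 0.0043 for Plin3, 0.0017 for Bscl2 and 0.025 for Fitm2. The log2 fold changes of these genes stayed within 0.5 in that fit. Of the exonic bases of Bscl2 10.8% lie in another gene, as do 15.95% of those of Abhd5 and 5.72% of those of Fitm2, and read pairs there were counted for both genes without regard to strand. For Plin4 this share is 0.294%, and for the other perilipins and Pnpla2 it is 0. Plin4 had a tissue difference of -0.36 with a 95% confidence interval of -1.79 to 1.07, and -0.30 with an adjusted p of 0.161 when the mouse was a block. Plin5 differed by -0.78 (95% confidence interval -1.99 to 0.42).

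**Figure D5:**
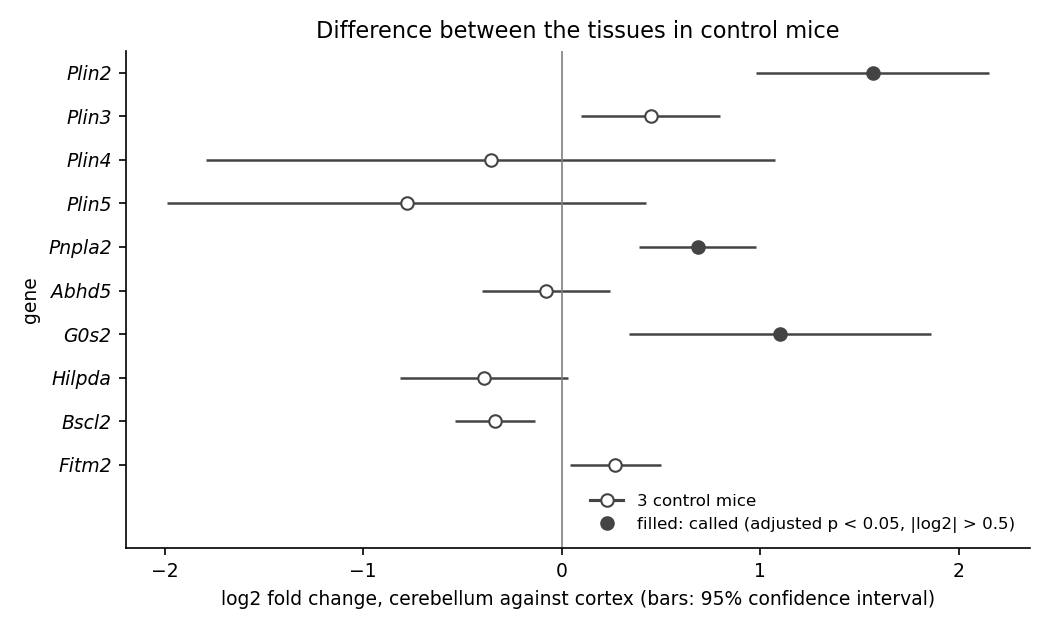
Log2 fold change of cerebellum against cortex in the 3 control mice for the 10 genes, with 95% confidence intervals from edgeR as bars and filled points for called genes. Plin2 (1.57), G0s2 (1.10) and Pnpla2 (0.69) are called, all higher in cerebellum, and the wide bars of Plin4 and Plin5 span 0.

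The other droplet genes differed between the tissues in both directions. Of the 34 tested 6 (17.6%) were called higher and 5 (14.7%) lower in cerebellum, beside 19.1% and 21.5% of all tested genes. Cidea, a protein of droplet fusion, was higher by 2.56 (adjusted p 7.88e-05 by edgeR) and was the only coat and surface gene called. Among the synthesis genes, Dgat2, an enzyme of the last step of triglyceride synthesis, fell by 2.20 on the log2 scale from cortex to cerebellum (71.7 against 15.6 CPM), and Lpin1 and Pcyt1a were higher by 0.64 and 0.61. Among the hydrolysis genes 2 were called higher and 3 lower in cerebellum. Mgll, which cleaves monoglycerides after ATGL and Lipe have acted, fell by 1.66 on the log2 scale from cortex to cerebellum. Lpl and Abhd12 differed by -4.39 and -0.71.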

How the data were processed

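The authors deposited 1 table of raw read-pair counts per gene and library. Paired-end reads had been trimmed, mapped with STAR to GRCm38 and counted with featureCounts 2.0.1 (file headers, methods). Strand was not used, multimapping reads were dropped, and a pair over several genes was counted for each. The deposited entries without a mouse gene identifier (0.160% to 0.926% of counts) were left out. Gene names came from GENCODE M21 and matched 55450 of 55536 identifiers.

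filterByExpr kept genes at a minimum count of 10, and TMM factors scaled the libraries. Each comparison used edgeR 4.0.16 (R 4.3.3) and its quasi-likelihood F test over all genes kept, with Benjamini-Hochberg adjustment and no covariate. The study used DESeq2, run here (1.42.0) as an alternative beside other scaling, no filter, sex, blocks and leaving out each library. The code was tested on simulated counts. For KO against control within a tissue the p-values measure the spread between mice, with 2 or 3 per group. For the tissue comparison and the difference of the KO effects, the libraries of a mouse were fitted as if independent. Only the alternative fits with the mouse as a block take that pairing into account. Controls pool Het and WT as labelled. The tissues of a mouse pair by its animal number in the labels, and their deviations from the group means correlated at 0.198 to 0.420 across genes. Members and lists were chosen with earlier results of these data known. Genes named outside the members are Snx14, up to 3 called genes with the smallest adjusted p per list, called neighbours within 50 kb and the 5 genes most like a called member by Pearson's r on log2(CPM + 0.5).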

Additional observations from a re-analysis of the deposited data

Results flagged for a closer look

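Entries of the count tables that carry no mouse gene identifier, which the comparisons do not use, held up to 0.926% of the counts of a library. They were singled out because they are a signal outside the gene counts, and they enter none of the values of the 10 genes.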

How the results depend on the processing

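The direction of the Plin4 and Pnpla2 KO effects held in both tissues under every alternative run, and the tissue differences of Plin2, G0s2 and Pnpla2 likewise. The counts moved more. In cerebellum 302 genes were called, 842 with no filter on low counts (a fit with infinite prior degrees of freedom, whose p-values are not reliable), and between 133 (without control 1) and 400 (without control 2) with 1 library left out, 179 without control 3 and 180 without KO 1. The members called numbered 2 with sex as a term and between 0 and 1 with 1 library left out. In cortex the count went from 0 to 49 with DESeq2, 380 with no filter and 3 with sex as a term, and lay between 0 and 98 (without control 2) with 1 library left out, 7 of them without KO 2. Members called there were 1 with no filter, and 0 to 1 with 1 library left out, in each case Plin4. Differences of the KO effects were called for 219 genes with DESeq2, 599 with no filter, 42 with sex as a term and between 3 and 117 with 1 library left out.

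KO and control mice share replicate numbers only as names, and the deviations of same-numbered mice correlated at 0.0044 and -0.050 in cerebellum and at 0.071 and 0.13 in cortex. With the number as a replicate block 181 genes were called in cerebellum and 3 in cortex, with 1 member, Plin4, in each (log2 fold changes 2.94 and 2.67). With the mouse as a replicate block the differences of the KO effects numbered 128, and no other call among the 10 genes changed. The cause of these shifts was not tested. With library totals only, the median tissue difference of all genes moved from 0.017 to 0.13 and the genes called higher in cerebellum from 3700 to 4610, and Plin3 passed at 0.56, as it did without control 2 at 0.57. Where 1 KO library was left out, the other was assumed to vary like the controls.

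Estimates near 0 changed sign. G0s2 in cerebellum went to 0.0022 with library totals only and 0.025 with the block, Fitm2 there to -0.0057 with no filter, -0.0089 with sex and -0.054 with the block, Plin2 in cortex to -0.083 with the block, and the tissue difference of Abhd5 to 0.031 with library totals only. With 1 library left out the ranges that crossed 0 were, in cerebellum, -0.26 to 0.16 for Plin2, -0.52 to 0.076 for Hilpda, -0.15 to 0.11 for G0s2 and -0.068 to 0.071 for Fitm2. In cortex they were -0.084 to 0.30 for Plin2, -0.13 to 0.43 for Plin5, -0.080 to 0.065 for Hilpda and -0.27 to 0.53 for G0s2. For the difference of the KO effects they were -0.38 to 0.065 for Plin2, -0.34 to 1.10 for Plin4, -0.031 to 0.30 for Pnpla2, -0.0015 to 0.28 for Abhd5, -0.48 to 0.13 for Hilpda and -0.54 to 0.24 for G0s2. None of these contrasts passed under any setting. Plin5 rests on 3 to 16 read pairs per library, which limits its precision.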
